A study of Mus musculus with 2 samples.

Results

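Tbx3, Prdm14 and Sall4 are transcription regulators of mouse embryonic stem cells, and they were described here as a group of 3 genes among 55415 features. The members were found by symbol, and each matched 1 feature. They were chosen by their higher summed levels in the positive library, so the library values below are a description of that choice and carry no test.

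The cells were a mouse embryonic stem cell line (source labelled mESC) that carried GFP under the promoter of the endogenous retrovirus MERVL, a mark of 2C-like cells, together with an H2B-mIFP label for following them. Both groups carried both transgenes and differed in the label MERVL GFP positive or MERVL GFP negative, with 1 single-cell library each. The labels name no clone, culture medium or sorting gate for the line. The label of the group is also the label of the batch, so that library and group cannot be told apart, and no difference below has a replicate check.

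Tbx3 is a T-box repressor that sustains self-renewal downstream of LIF and PI3K signalling, and it can also promote extra-embryonic endoderm when it acts with Gata6. Prdm14 is a PR-domain zinc finger protein that, with Cbfa2t2 and Polycomb repressive complex 2, keeps the de novo DNA methyltransferases and FGF receptors low in naive cells, and it is required for primordial germ cells. Sall4 is a spalt-family zinc finger protein that works beside Pou5f1 and Nanog, recruits the NuRD deacetylase complex, and is used by both the epiblast and the primitive endoderm lineage. Zscan4 genes are expressed in bursts in embryonic stem cells and mark the 2C-like state, and Gata6 and Dab2 are a transcription factor and an endocytic adaptor of primitive endoderm.

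In the GENCODE annotation of GRCm38, Tbx3 (ENSMUSG00000018604) lies on the plus strand at chr5:119670669-119684724, with up to 8 exons. Prdm14 (ENSMUSG00000042414) lies on the minus strand at chr1:13113457-13127163, with 8 exons. Sall4 (ENSMUSG00000027547) lies on the minus strand at chr2:168748332-168767943, with up to 4 exons. Tbx3 shares 697 bases with the antisense gene Tbx3os1, and Sall4 shares 1801 bases with the non-coding Gm14261 on the opposite strand. These neighbours were low, with Tbx3os1 at 5.31 CPM (UMIs per 1000000 UMIs of the library) in the positive and 1.88 CPM in the negative library, and Gm14261 at 1.68 and 0.224 CPM. Whether the authors counted by strand is not given in the sources used here.

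The positive library held 138364094 counts in 4603 cells and the negative library 156406894 counts in 3832 cells. Counts are called UMIs here, although the labels name no capture method. Cells were kept from 1000 UMIs and 500 genes upward and up to a mitochondrial share of 20%, which left 4596 and 3832 cells, with medians of 29554.5 and 39099.5 UMIs. The libraries shared 3 barcodes. All 18 pluripotency markers of the list used were above 1 CPM in both libraries. Summed fibroblast markers were at 13.9 and 3.87 CPM, with 6 and 8 of 9 under 1 CPM. Trophoblast markers summed to 95.4 and 30.4 CPM, with 3 and 5 of 10 under 1 CPM. Median mitochondrial shares were 2.56% and 1.60%, and median shares of the G2/M gene list were 0.89% and 0.73%. The part of depth, mitochondrial share and cell cycle in the library differences was not tested.

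For the classes below, each cell was thinned to 10000 UMIs, which left out 194 positive and 8 negative cells. A cell was called high with 3 or more thinned UMIs of the Zscan4a to Zscan4f genes (Zscan4-high), of GFP (GFP-high) or of Gata6 and Dab2 together (endoderm-high). Levels were then taken from all UMIs of the cells in a class and are given as CPM with the exact Poisson 95% interval, which covers counting error only.

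Across all kept cells, all 3 members were higher in the positive library. Tbx3 gave 67224 UMIs in the positive and 40798 in the negative library, which is 486 CPM (482 to 490) against 261 CPM (258 to 263). Prdm14 was sparse, with 1279 and 665 UMIs, or 9.25 CPM (8.75 to 9.77) against 4.25 CPM (3.93 to 4.59). Sall4 gave 34614 and 23137 UMIs, or 250.3 CPM (248 to 253) against 148 CPM (146 to 150). The CPM ratios of positive to negative were 1.86 (1.84 to 1.89) for Tbx3, 2.17 (1.98 to 2.39) for Prdm14 and 1.69 (1.66 to 1.72) for Sall4. On the log2 scale of CPM + 1 the differences were 0.90, 0.96 and 0.75.

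Genes were compared in number by a fixed size, a ratio of CPM + 1 of at least 1.5 over genes that reached 10 CPM in one of the groups and 50 UMIs in all. Of 8042 such genes, 17.6% were higher and 4.89% lower in the positive library. Tbx3 and Sall4 were among the higher genes, and Prdm14 was under 10 CPM in both libraries and was not counted. The median gene was higher by 0.14 on the log2 scale, and above that median Tbx3 was higher by 0.75, Prdm14 by 0.82 and Sall4 by 0.61. Scaling by the trimmed mean of M values (TMM) turned that median to −0.14 and the split of 1418 higher and 393 lower genes to 727 and 1233. The members stayed higher in the positive library under TMM, by 0.60 for Tbx3, 0.71 for Prdm14 and 0.46 for Sall4. At 0.46 Sall4 was no longer past 1.5, under TMM as under median-of-ratios scaling.

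At equal depth, the share of cells with a transcript was higher in the positive library for each member. After thinning, a Prdm14 UMI was found in 7.66% of the cells in the positive and 4.29% in the negative library (18.6% and 14.6% unthinned), set against 1.41% and 1.33% of their endoderm-high cells. Tbx3 was found in 87.1% and 83.0% of thinned cells, and Sall4 in 83.5% and 74.3%. Unthinned, in the deeper negative library, the order was the other way for Tbx3 (94.3% and 96.1%) and Sall4 (96.5% and 97.7%). The Prdm14 shares in the libraries were above those in their endoderm-high cells, whose median depths were 29711 and 40425 UMIs. Free RNA gives UMIs in cells that do not express a gene, and its amount was not estimated here. Whether the few Prdm14 UMIs in the endoderm-high cells are expression or free RNA was not tested.

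The library difference of Tbx3 and Prdm14 was also present in cells without class transcripts. Cells with 0 thinned UMIs of Zscan4, GFP, Gata6 and Dab2 numbered 813 in the positive and 3345 in the negative library. Tbx3 was at 463 CPM (455 to 471) in the positive cells and 241 CPM (239 to 244) in the negative cells, a ratio of 1.92 (1.88 to 1.96). Prdm14 was at 11.8 CPM (10.6 to 13.2) against 4.46 CPM (4.11 to 4.82), a ratio of 2.65 (2.31 to 3.04). Sall4 was at 176 CPM (171 to 181) against 145 CPM (143 to 147), a ratio of 1.22 (1.18 to 1.25).

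In those cells 10.7% of 7773 genes were higher by 1.5 or more and 2.03% lower. Tbx3 passed that size and Sall4 did not. Prdm14 was also past it, but was counted only because its higher group reached 10 CPM, here as in the class comparisons below, so its place among the counted genes supports nothing. Under median-of-ratios scaling, added after the data were seen, Tbx3 fell just short of it at 0.58. The Sall4 difference of 0.28 on the log2 scale was close to the median of all genes, 0.15, and it turned to −0.048 under TMM. TMM moved the median of all genes to −0.16 and turned the split of 835 higher and 158 lower genes to 287 and 815. Before thinning, the positive cells of this class still held 26.0 CPM of Zscan4 and 9.86 CPM of Gata6 and Dab2, against 0.09 and 4.37 CPM in the negative cells. GFP was at 26.2 against 0.26 CPM, other 2C genes summed to 44.8 against 0.28 CPM, primitive endoderm markers to 396 against 192 CPM (3 and 7 of 15 under 1 CPM) and trophoblast markers to 81.8 against 27.7 CPM (3 and 5 of 10 under 1 CPM). Their part in the Tbx3 and Prdm14 differences was not tested. In cells with no class UMI before thinning, chosen after the data were seen (172 positive and 2814 negative cells), Tbx3 was at 421 and 239 CPM, Prdm14 at 10.5 and 4.43 CPM, and Sall4 at 173 and 146 CPM.

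**Figure D1:**
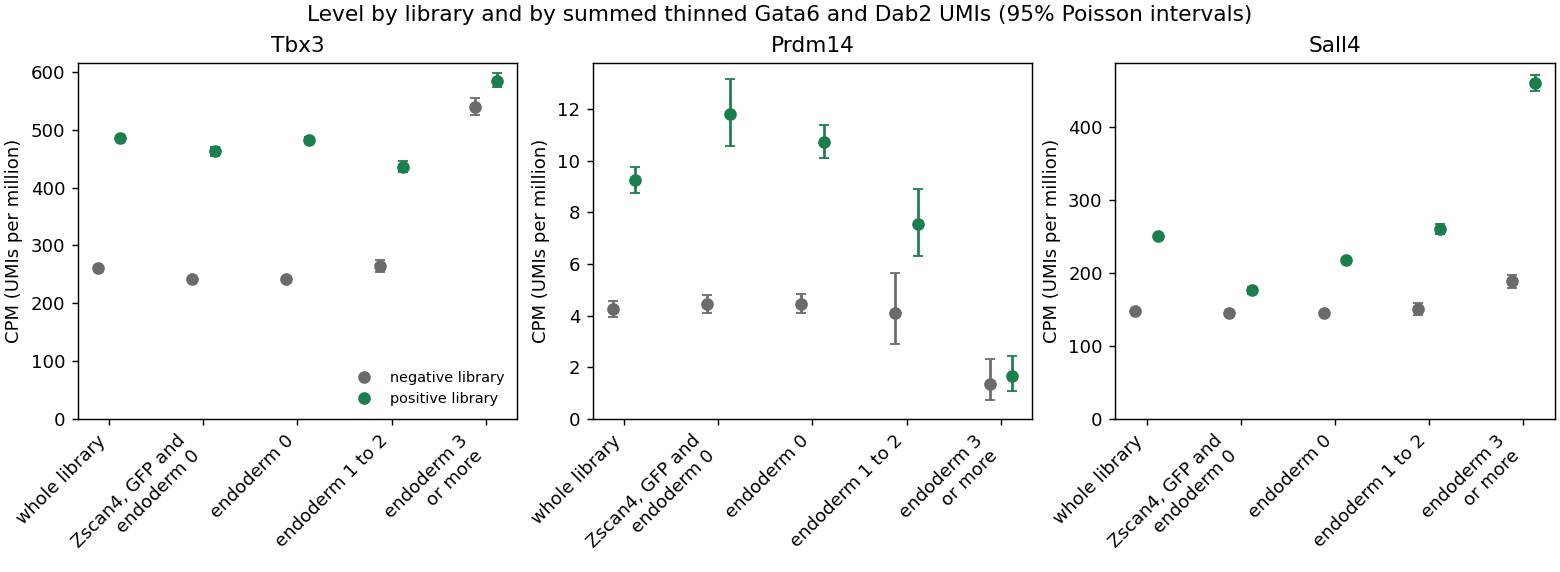
Levels of Tbx3, Prdm14 and Sall4 in CPM (vertical axes, linear from 0) in whole libraries and in cell classes of the positive and negative library, with exact Poisson 95% intervals as error bars. Tbx3 and Prdm14 are higher in positive-library cells at 0 for all class genes (463 against 241 CPM and 11.8 against 4.46 CPM), while Sall4 is highest in endoderm-high cells of the positive library (460 CPM).

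Within single cells, the Tbx3 difference lay in the whole distribution rather than in a few cells. Among cells at 0 for all class genes, 41.3% of positive and 15.2% of negative cells had 5 or more thinned Tbx3 UMIs, and 9.35% and 18.2% had none. The tenth of cells with most Tbx3 held 27.8% of its UMIs in the positive and 29.2% in the negative class. The median was 4 UMIs per positive cell and 2 per negative cell. For Sall4 the medians were 2 and 1 UMIs, and 5.66% and 3.02% of these cells had 5 or more.

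**Figure D2:**
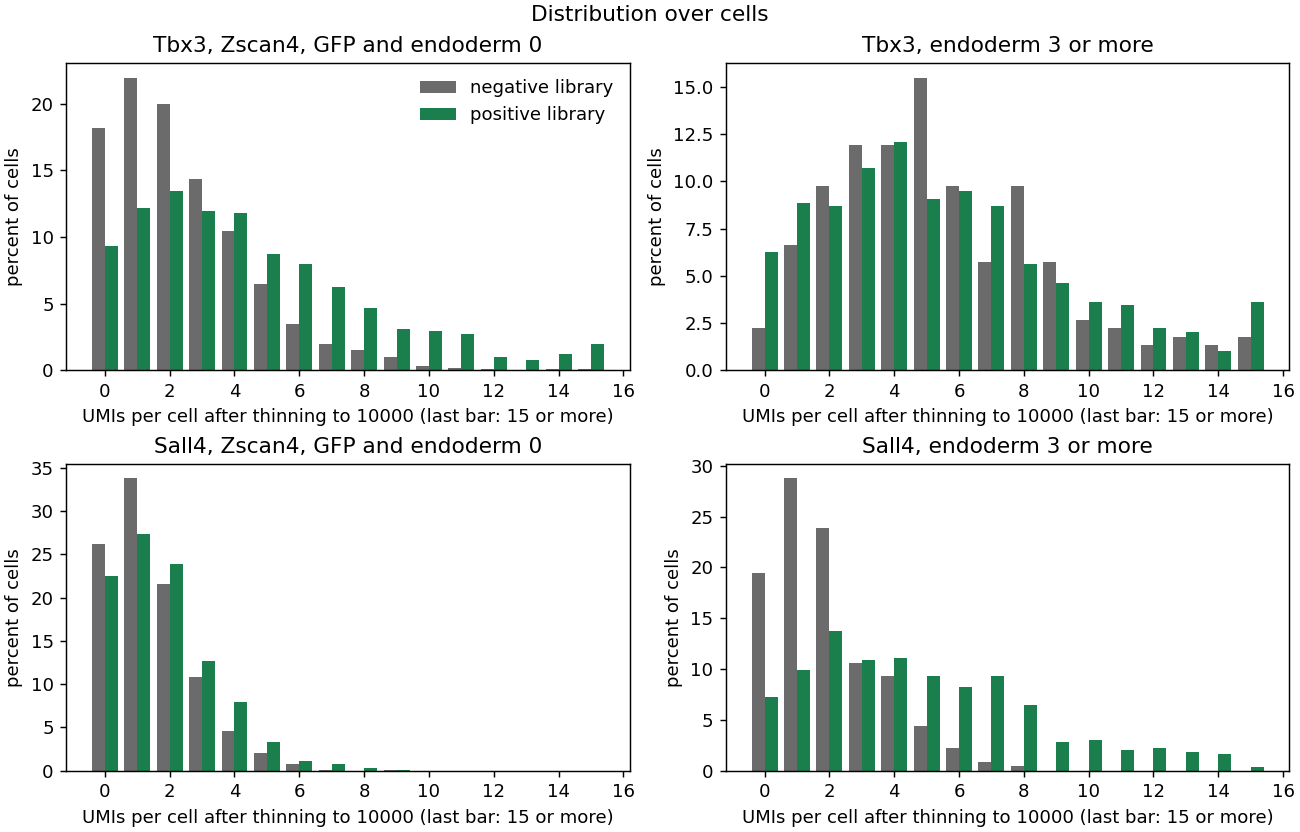
Percent of cells (vertical axis) by thinned UMIs per cell of 10000 (horizontal axis) for Tbx3 and Sall4 in classes of the positive and negative library. The Tbx3 distribution of positive-library cells at 0 for all class genes lies to the right of the negative one (41.3% against 15.2% with 5 or more UMIs), and the Sall4 distributions separate in endoderm-high cells (47.2% against 7.96%).

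With rising Zscan4, the members parted. In the positive library, 1190 Zscan4-high cells were set against 1970 cells with 0. Tbx3 was lower in the Zscan4-high cells, at 374 against 514 CPM (log2 difference −0.46). Prdm14 was also lower, at 5.44 against 10.4 CPM (−0.83). Sall4 was higher, at 304 against 221 CPM (0.46). Of 8266 genes, 11.5% were higher and 8.34% lower by 1.5 or more, and neither Tbx3 nor Sall4 reached that size. Prdm14 was past it, counted through the Zscan4-0 cells alone.

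By band of 0, 1 to 2, 3 to 9 and 10 or more Zscan4 UMIs (1970, 1242, 689 and 501 cells), Tbx3 stood at 514, 533, 444 and 253 CPM. It was lower from the third band on and lowest in the last. Prdm14 stood at 10.4, 10.3, 6.02 and 4.42 CPM, in the same order. Sall4 stood at 221, 259, 328 and 261 CPM, with its top in the third band. Median depth fell along these bands from 33015 to 20262 UMIs, the median mitochondrial share was 2.35% in the first and 3.20% in the last, and that of the G2/M list 0.84% and 1.05%. Their part in these differences was not tested.

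In the cells with most Zscan4, Tbx3 was past the fold size on the lower side, as was Prdm14, counted through the cells with 0 alone. Between cells with 10 or more Zscan4 UMIs and those with 0, Tbx3 differed by −1.02 and Prdm14 by −1.08 on the log2 scale, where 17.0% of 8426 genes were lower by 1.5 or more and 15.6% higher. Sall4 differed by 0.24. Between 3 to 9 UMIs and 0 the differences were −0.21 for Tbx3, −0.70 for Prdm14 and 0.57 for Sall4, and 5.27% of 8185 genes were lower and 8.78% higher. In the top band 27.5% of cells had no thinned Tbx3 UMI, and the tenth of cells with most Tbx3 held 44.8% of it, so Tbx3 was also less evenly spread there than in the cells at 0 for all class genes.

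In cells with no thinned Gata6 or Dab2 UMI, finer Zscan4 bands were added after the data were seen. Before thinning these positive-library cells held 10.7 CPM of Gata6 and Dab2. Tbx3 stood at 498 CPM at 0 Zscan4 UMIs (1488 cells), 520 CPM at 3 to 4 (229 cells), 421 CPM at 5 to 9 (260 cells), 315 CPM at 10 to 19 (193 cells), 223 CPM at 20 to 49 (131 cells) and 173 CPM at 50 or more (52 cells). The last value was below the 241 CPM of the negative library's cells without Gata6 or Dab2. Prdm14 was at 11.8 CPM at 0, 5.10 CPM at 5 to 9 and 3.81 CPM at 20 to 49, and at 10.1 CPM (4.85 to 18.6) at 50 or more. Each of the last 2 bands named rested on 10 Prdm14 UMIs, so its course at the top of the Zscan4 range is not resolved. Sall4 was at 193 CPM at 0 and 301 CPM at 5 to 9, and at 237 to 239 CPM in the 3 bands above.

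**Figure D3:**
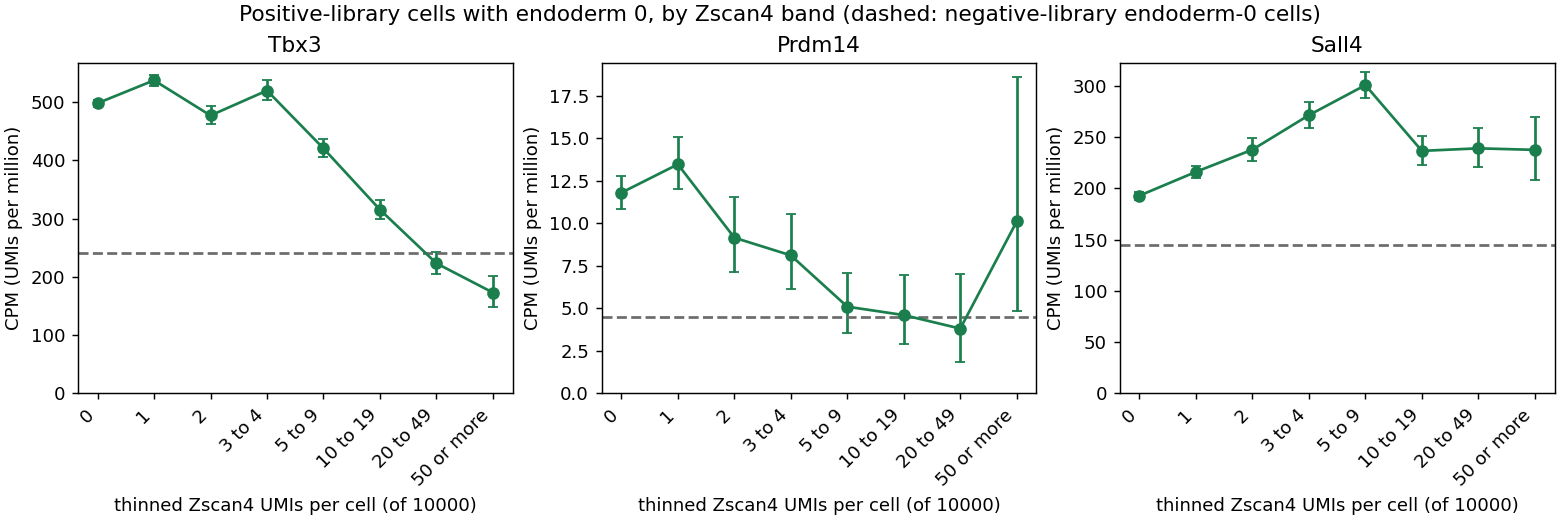
CPM of each gene (vertical axes, linear from 0) in positive-library cells with no thinned Gata6 or Dab2 UMI, with exact Poisson 95% intervals. The horizontal axis is thinned Zscan4 UMIs per cell. The dashed line is the negative library's level in cells with no thinned Gata6 or Dab2 UMI. Tbx3 stays near 500 CPM up to 3 to 4 Zscan4 UMIs and is at 173 CPM in the last band, while Sall4 is highest at 5 to 9 UMIs (301 CPM).

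Zscan4 was almost absent from the negative library, where 7 cells had 1 to 2 and 2 cells had 3 to 9 thinned UMIs. In the 7 cells Tbx3 was at 507 CPM (426 to 599), above the 260.2 CPM of that library's cells without Zscan4, but these are 7 cells of 1 library.

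GFP transcript levels separated Sall4 from the other members. In the positive library, 1386 GFP-high cells were set against 1677 cells with 0. Sall4 was at 304 against 206 CPM (0.56), Prdm14 at 7.09 against 10.4 CPM (−0.49) and Tbx3 at 452 against 475 CPM (−0.070). None of the 3 reached 1.5 in this comparison, in which 6.85% of 8166 genes were higher and 5.76% lower. That depended on the setting: Sall4 passed 1.5 under TMM and median-of-ratios scaling (0.67 in both), as the mean of each cell's CPM (0.60), in cells below the median G2/M share (0.84) and at a threshold of 10 GFP UMIs (0.68). Prdm14 passed it in cells below the median G2/M share (−0.95), at a threshold of 10 (−1.19) and with classes from 5000 thinned UMIs (−0.67). TMM moved that split from 559 and 470 genes to 689 and 282, the median of all genes from −0.095 to 0.014, and the small Tbx3 difference to 0.043.

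By band of 0, 1 to 2, 3 to 9 and 10 or more GFP UMIs, Sall4 stood at 206, 262, 300.3 and 331 CPM, higher in each band than in the one before. Tbx3 stood at 475, 538, 470 and 321 CPM and Prdm14 at 10.4, 9.78, 7.51 and 3.96 CPM, so both were lowest where GFP was highest. Median depth was 32428 UMIs in the first and 23240.5 UMIs in the last GFP band, and the median G2/M share 0.83% and 1.03%, and their part in these differences was not tested. Among positive-library cells without Zscan4, Gata6 or Dab2, a comparison added after the data were seen set 675 cells with GFP against the 813 without. Tbx3 was at 541 against 463 CPM (0.23), Sall4 at 214 against 176 CPM (0.28) and Prdm14 at 11.8 CPM in both. No member reached 1.5, a size reached by 1.8% of 7831 genes upward and 0.485% downward. In the negative library 15 cells had any thinned GFP UMI, too few to compare.

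Within the positive library, the endoderm classes gave wider gaps for Prdm14 and Sall4 than the Zscan4 or GFP classes. There, 496 endoderm-high cells were set against 3290 cells with 0. Prdm14 gave 26 UMIs in the endoderm-high cells, 1.68 CPM (1.10 to 2.46), against 10.7 CPM (10.1 to 11.4), a log2 difference of −2.13. Sall4 was at 460 CPM (449 to 470) against 218 CPM (215 to 221), a difference of 1.07. Tbx3 was at 585 CPM (573 to 597) against 483 CPM (479 to 487), a difference of 0.28. Of 8234 genes, 11.5% were higher and 13.0% lower by 1.5 or more, and Sall4 was among the higher. Prdm14, counted through the endoderm-0 cells alone, was past that size on the lower side. Trophoblast markers summed to 216 CPM in the endoderm-high and 77.1 CPM in the endoderm-0 cells. The median G2/M share was 0.75% against 0.91%, and that of the S-phase gene list 0.31% against 0.46%. Their part in these differences was not tested.

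In the negative library, 226 endoderm-high cells were set against 3361 with 0, and here Tbx3 rather than Sall4 had the wide gap. Tbx3 was at 539 CPM (525 to 554) against 241 CPM (239 to 244), a log2 difference of 1.16. Sall4 was at 188 CPM (180 to 197) against 145 CPM (143 to 147), a difference of 0.38. Prdm14 gave 13 UMIs, 1.36 CPM (0.72 to 2.32), against 4.46 CPM (4.12 to 4.83), a difference of −1.21. Of 7613 genes, 13.0% were higher and 7.7% lower, and Tbx3 was among the higher. Prdm14 was under 10 CPM in both classes and was not counted. Trophoblast markers summed to 70.2 against 27.7 CPM. The median G2/M share was 0.675% against 0.73%, and the S-phase share 0.35% against 0.50%. Their part in these differences was not tested.

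The endoderm-high cells without Zscan4 allowed the libraries to be set side by side, with 244 positive and 225 negative cells, a comparison added after the data were seen. Sall4 was at 410 CPM (396 to 424) in the positive and 188 CPM (180 to 197) in the negative cells, a ratio of 2.18 (2.05 to 2.31). Tbx3 was at 622 CPM (605 to 639) against 535 CPM (521 to 550), a ratio of 1.16. Prdm14 was at 2.23 against 1.15 CPM, and the interval of its ratio, 0.865 to 4.53, did not separate the libraries. Of 7815 genes, 9.39% were higher and 3.94% lower by 1.5 or more in the positive cells, and Sall4 was among the higher. TMM moved that split from 734 and 308 genes to 606 and 435.

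The endoderm-high cells of the libraries were not alike in their markers. In the cells without Zscan4, Gata6 was at 532 CPM in the positive and 632 CPM in the negative library, and Dab2 at 637 and 286 CPM. Summed primitive endoderm markers were at 4962 and 3546 CPM, and summed trophoblast markers at 281 and 70.3 CPM. Before thinning these cells held 28.2 and 0.63 CPM of Zscan4 and 179 and 1.26 CPM of GFP. Other 2C genes summed to 208 and 1.05 CPM. Their part in the Sall4 difference was not tested. Over all endoderm-high cells, with or without Zscan4 (496 positive and 226 negative), 47.2% and 7.96% reached a count of 5 or more thinned Sall4 UMIs. For Tbx3 the shares were 53.4% and 57.5%. Of those cells, 244 and 225 had no thinned Zscan4 UMI.

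Endoderm and Zscan4 levels combined in the positive library. Among endoderm-high cells with 0, 1 to 2, 3 to 9 and 10 or more Zscan4 UMIs (244, 143, 78 and 31 cells), Tbx3 was at 622, 644, 447 and 221 CPM. Among cells with no thinned Gata6 or Dab2 UMI, it was at 498, 522, 470 and 269.8 CPM over the same bands. Low Tbx3 in the top Zscan4 band was therefore seen with and without endoderm transcripts. Sall4 was at 410, 471, 597 and 537 CPM in the endoderm-high cells and at 193, 222, 286 and 238 CPM in the cells without. Sall4 was higher in the endoderm-high cells in each of the 4 Zscan4 bands. Prdm14 gave between 2 and 18 UMIs in the endoderm-high bands.

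The higher level of the positive library was then divided among its cell classes. Each class contributes its share of the library's UMIs times the gap between its CPM and the negative library's CPM, and the contributions sum to the library difference, which in the classed cells was 227 CPM for Tbx3, 5.02 CPM for Prdm14 and 103 CPM for Sall4. Cells without Gata6, Dab2 or Zscan4 held 36.8% of the UMIs, and gave 38.4% of the Tbx3 difference, 55.4% of the Prdm14 difference and 16.1% of the Sall4 difference. Cells with 1 to 2 Zscan4 UMIs and no Gata6 or Dab2 held 22.2% and gave 25.5%, 36.0% and 15.9%. Cells with 3 or more Zscan4 UMIs and no Gata6 or Dab2 held 16.4% and gave 9.62%, 5.68% and 19.1%. All these shares are on the CPM scale and were not computed under other scalings. Under TMM the Sall4 difference in cells at 0 for all class genes changed sign (−0.048).

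Cells with 1 to 2 UMIs of Gata6 and Dab2 held 13.3% of the UMIs and gave 10.3% of the Tbx3, 8.70% of the Prdm14 and 14.5% of the Sall4 difference. Endoderm-high cells held 11.3% and gave 16.2% of the Tbx3 and 34.4% of the Sall4 difference. They gave −5.82% of the Prdm14 difference, since Prdm14 was lower there than in the negative library. Each class was set against the whole negative library, so its share mixes how common the class is with its level. Endoderm-high cells numbered 496 of 4402 positive and 226 of 3824 negative cells, with Tbx3 at 585 and 539 CPM. Tbx3 was spread over the classes, with less than the UMI share from the Zscan4-high cells and from cells with 1 to 2 endoderm UMIs, and more from the endoderm-high cells and those with 1 to 2 Zscan4 UMIs. Prdm14 came mostly from cells with little or no Zscan4 and no endoderm transcript. For Sall4 the endoderm-high cells gave the most of the 5 classes, but with classes from 5000 thinned UMIs they gave 26.5% and the cells without Zscan4 or endoderm UMIs 26.4%. The Zscan4-high cells then gave 2.06% of the Tbx3, 2.24% of the Prdm14 and 12.1% of the Sall4 difference, and the cells with 1 to 2 Zscan4 UMIs 21.7% of the Prdm14 difference.

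**Figure D4:**
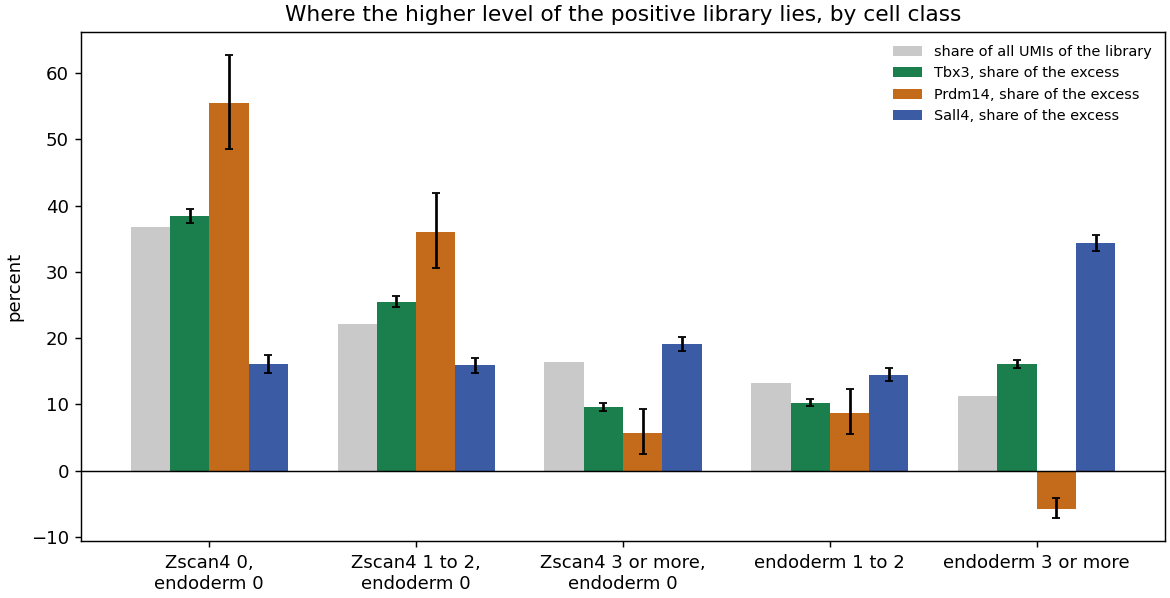
Percent of the positive-minus-negative CPM difference that each of 5 positive-library cell classes gives (vertical axis), per gene, beside each class's percent of the library's UMIs. Each class is set against the whole negative library. Endoderm-high cells hold 11.3% of the UMIs and give 34.4% of the Sall4 difference, 16.2% of the Tbx3 difference and −5.82% of the Prdm14 difference.

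Among themselves the members varied together only weakly from cell to cell. Over thinned cells, which share library and depth, Pearson's r between Tbx3 and Prdm14 was 0.14 in the positive library (4402 cells, 322 with both) and 0.03 in the negative (3824 cells, 148 with both). Between Sall4 and the endoderm genes it was 0.29 and 0.08, and between Tbx3 and the endoderm genes 0.08 and 0.27, the reverse order. In counts this sparse such values are a description.

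Cells at 0 for all class genes were also split by their own thinned Tbx3 UMIs, a split added after the data were seen, and other genes were read in the remaining thinned UMIs. The bands of 0, 1 to 2, 3 to 5, and 6 or more held 9.35%, 25.6%, 32.5% and 32.6% of the 813 positive cells and 18.2%, 41.9%, 31.2% and 8.73% of the 3345 negative cells. Prdm14 was at 3.95, 6.25, 9.85 and 18.1 CPM over the positive bands and at 2.63, 4.43, 5.94 and 5.83 CPM over the negative bands. The Prdm14 counts were few, 3 thinned UMIs in the first and 48 in the last positive band. From all UMIs of the same cells, Prdm14 was at 8.20, 7.69, 9.50 and 18.5 CPM over the positive bands. Over the negative bands it was then at 3.28, 4.03, 4.90 and 7.60 CPM. The lower positive bands thus showed no steady rise when all UMIs were used. Sall4 hardly moved with Tbx3, at 184 and 187 CPM in the first and last positive bands and 141 and 154 CPM in the negative ones.

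Of the 18 pluripotency genes, 9 were higher by 1.5 or more and 1 lower in the positive cells with 6 or more Tbx3 UMIs than in those with 0, where 6.03% of 6588 genes were higher and 6.22% lower. In the negative cells 4 were higher and none lower, where 3.61% of 7449 genes were higher and 1.88% lower. The genes named next were chosen after their values were seen. Utf1 had no steady course in the positive cells, at 216, 249, 242 and 173 CPM over the 4 bands, and was at 488 and 389 CPM in the first and last negative bands, and Pou5f1 differed little in the negative cells, at 386 and 399 CPM. Nanog, a core pluripotency factor, was at 217 CPM in positive cells without Tbx3 but at 610.4 CPM where Tbx3 reached 6 UMIs, and at 141 and 279.7 CPM in the negative cells. Klf4, a naive-state factor under LIF control, was at 187 and 521 CPM in the positive and 273 and 518 CPM in the negative cells. Tfcp2l1, another naive-state factor, was at 48.7 and 162 CPM and at 74.3 and 168 CPM. Of the 5 genes that Prdm14 is known to repress, 4 could be compared, and Dnmt3b and Dnmt3l were lower by 1.5 or more in both libraries. The part of Prdm14 in this was not tested. The de novo DNA methyltransferase Dnmt3b was at 80.3 and 24.9 CPM in the positive and 55.4 and 21.9 CPM in the negative cells. Dnmt3a, of the same enzyme family, was at 39.5 and 41.9 CPM and at 37.2 and 30.5 CPM, short of 1.5 in both. Bands cut on a gene's own thinned count also sort cells by chance, and median depth ranged from 31514 to 33746 UMIs over the positive bands.

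**Figure D5:**
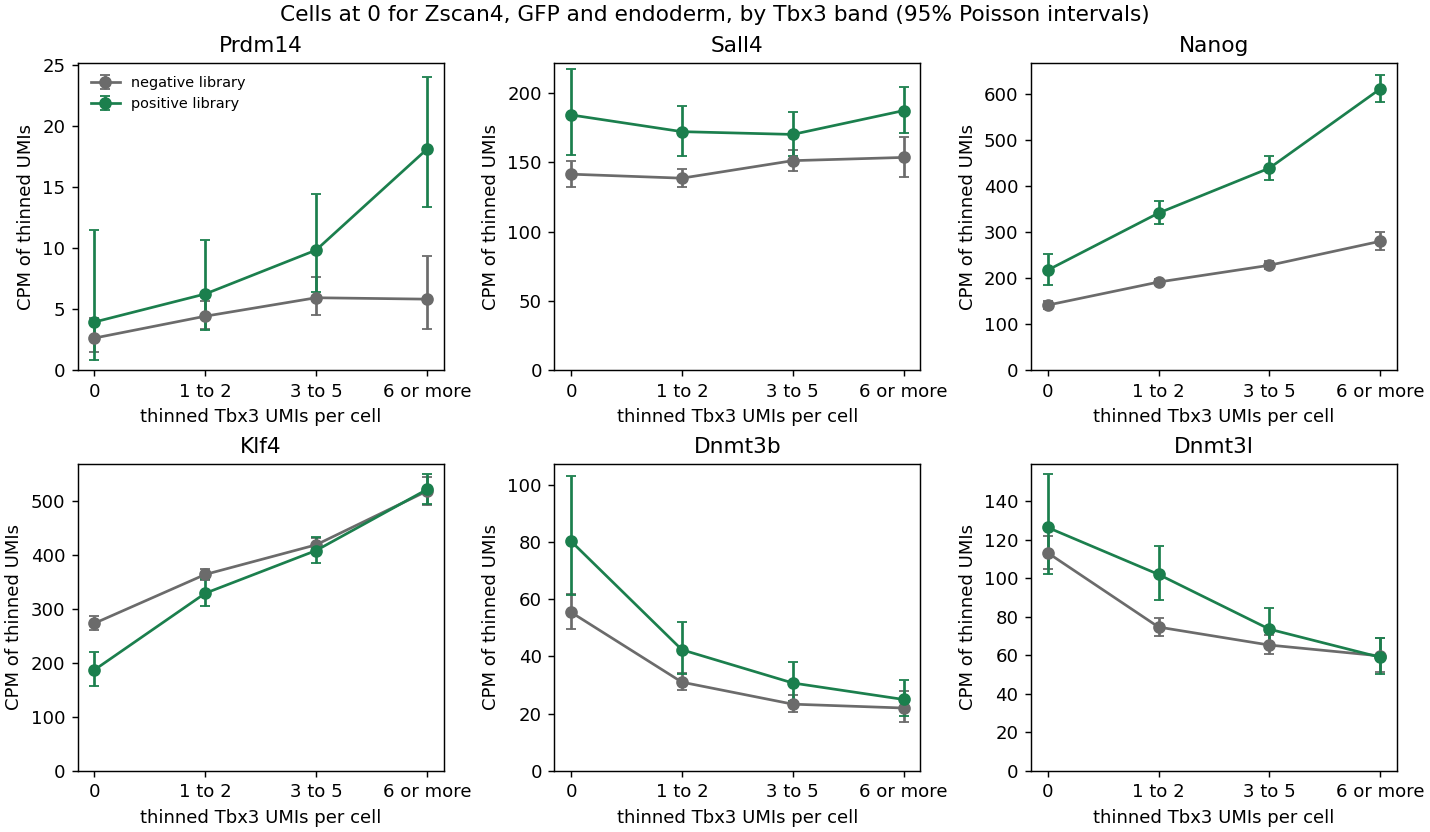
Thinned CPM of named genes (vertical axes, linear from 0) in cells at 0 for Zscan4, GFP and endoderm genes, by the cell's own thinned Tbx3 UMIs (horizontal axis), for the positive and negative library with exact Poisson 95% intervals. Nanog is higher with more Tbx3 in both libraries (217 to 610.4 CPM in the positive, 141 to 279.7 CPM in the negative), Dnmt3b is lower, and Sall4 is nearly level.

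Genes of the members' families were mostly too low to compare. The counts between libraries in the following lists stand against 17.6% higher and 4.89% lower over all 8042 genes. They are on the CPM scale and were not made under TMM, which moved the median of all genes from 0.14 to −0.14. Calls close to 1.5 can therefore be lost on the higher side and gained on the lower side under TMM. Of 17 T-box genes 2 passed the expression floor in the library comparison, Tbx3 and Mga, and Mga did not reach 1.5 in either direction. Of 15 PRDM genes 4 passed, and 2 were higher in the positive library. These were Mecom, at 30.6 against 0.49 CPM, and Prdm2, at 44.2 against 27.3 CPM. Mecom passed the floor through the positive library alone, so its place among the counted genes supports nothing. Of 4 SALL genes 2 passed, Sall4 on the higher side and Sall1 on the lower, at 23.1 against 46.7 CPM (log2 difference −0.99).

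Genes tied to Prdm14 were read in the same way. Of the 7 genes for its partner Cbfa2t2 and Polycomb repressive complex 2, 1 was higher in the positive library, a share near that of all genes (17.6%). It was the complex's accessory subunit Mtf2, at 761 against 296 CPM (1.36). Of 5 genes that Prdm14 is known to repress, 4 passed the floor and none was past 1.5 between libraries. Between endoderm-high and endoderm-0 cells, Dnmt3a, Dnmt3b, Dnmt3l and Fgfr2 were higher and Fgfr1 lower in both libraries. Of all genes, 11.5% were higher and 13.0% lower in the positive and 13.0% and 7.7% in the negative library. Fgfr2 did not pass the floor between libraries and was counted here through the endoderm-high cells alone. Prdm14 was sparse in the endoderm-0 cells too, with a thinned UMI in 8.88% (positive) and 4.55% (negative) of them. The part of Prdm14 in these differences was not tested. Dnmt3b was at 299.9 against 33.1 CPM in the positive and 297 against 31.7 CPM in the negative library. Of the TET demethylases, 2 of 3 passed the floor and Tet1 was lower in the positive library (−0.84).

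Of 11 genes for NuRD, the complex that Sall4 recruits, 10 passed the floor and none reached 1.5 between libraries. Of 11 genes of LIF and PI3K signalling, upstream of Tbx3, 10 passed. The kinases Jak1 (0.86) and Gsk3b (0.59) were higher in the positive library, and the receptor subunits Lifr (−0.89) and Il6st (−0.66) were lower. Of 8 germ cell genes 5 passed, and Dazl (2.55), Dppa3 (2.50) and Kit (0.70) were higher and Tfap2c (−1.06) lower, against 17.6% and 4.89% of all genes. Of 18 pluripotency genes all passed, with Nanog higher (1.09) and Utf1 lower (−1.46), against the same shares. In Zscan4-high cells 12 of 18 were lower than in Zscan4-0 cells, where 8.34% of all genes were. In endoderm-high cells 12 of 18 were lower in the positive and 10 of 18 in the negative library, where 13.0% and 7.7% of all genes were, and 2 of 18 were higher in each, where 11.5% and 13.0% of all genes were.

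The genes whose levels ran most like each member were ranked by Pearson's r of log2(CPM + 1) over the 14 cell classes with at least 50 cells, 11 of the positive and 3 of the negative library. Tbx3 was most like Atp2b1 (0.98), Tm9sf4 (0.96), Golga4 (0.95), Pcmt1 (0.95) and Eif2s2 (0.95). Prdm14 was most like Pfkp (0.98), Zfp638 (0.97), Mllt6 (0.96), Gsta3 (0.96) and Mrps9 (0.96). Sall4 was most like Eid1 (0.97), Serp1 (0.95), Tram1 (0.95), Hnrnpu (0.95) and Atp6v1e1 (0.95). Of 8040 genes, 24 had an r above 0.9 to Tbx3, 125 to Prdm14 and 68 to Sall4. Between the members r was −0.05 for Tbx3 and Prdm14, 0.43 for Tbx3 and Sall4, and −0.49 for Prdm14 and Sall4. The classes share libraries, so these values are a description.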

How the data were processed

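The authors deposited raw counts per gene and cell barcode for each library. The submitters' processing notes name FastQC 0.11.2, Trim Galore 0.6.4, STAR 2.7.6a and the build mm10, with no role or order. The labels' protocols describe a total RNA extraction kit and a bulk RNA library kit, and the capture method is not given in the sources used here. Counts were filtered, thinned (seed 1) and summed per class in Python 3.11.15 with numpy 2.4.6, scipy 1.17.1 and pandas 2.3.3. TMM factors came from edgeR 4.0.16 in R 4.3.3. No test was run, since each condition has 1 library. Ratios of CPM have exact conditional 95% intervals, shares exact Clopper-Pearson intervals, and log2 differences a pseudocount of 1 CPM. No doublet caller was run. Named genes were the members, the class genes, for each list up to 4 genes per direction past 1.5 between libraries, and the 5 genes most like each member. Genes named by cell class or Tbx3 band beyond these were picked with their values in view. The summing was checked on simulated counts. Members and lists were chosen with earlier results of these data known. Alternatives were other scalings, cell filters, depths, cell cycle shares, thinning and class thresholds.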

Additional observations from a re-analysis of the deposited data

How the results depend on the processing

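No paired analysis was possible because 1 library stands for each condition, and no replicate could be left out. Values here are log2 differences in the order Tbx3, Prdm14, Sall4 where 3 are given. Of the log2 differences of the main comparisons under an alternative, 165 moved by less than their counting interval, 91 moved by more and 5 changed sign; the cause was not tested. Under TMM the library difference was 0.60, 0.71 and 0.46. GFP-high against GFP-0 cells gave 0.043 for Tbx3, a change of sign, and 0.67 for Sall4. Endoderm-high cells gave 0.36 for Tbx3 and 1.16 for Sall4 in the positive library and 1.08 and 0.30 in the negative. Cells at 0 for all class genes gave 0.61, 0.94 and, with a change of sign, −0.048. Median-of-ratios scaling, added after the data were seen, gave 0.60, 0.71 and 0.46 between libraries, 0.040 (sign changed) and 0.67 by GFP for Tbx3 and Sall4, 0.37 and 1.17 in positive and 1.09 (Tbx3) in negative endoderm-high cells, and 0.58, 0.92 and −0.077 (sign changed) in cells at 0.

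Without ribosomal protein and mitochondrial genes, Tbx3 and Sall4 differed by 0.85 and 0.71 between libraries and Tbx3 by 0.89 in cells at 0. The mean of each cell's CPM gave 0.81 and 0.79 between libraries, −0.56 for Tbx3 by Zscan4, −0.17 and 0.60 for Tbx3 and Sall4 by GFP, and 1.21 for Tbx3 in negative endoderm-high cells. Without a pseudocount Prdm14 differed by 1.12 between libraries. In cells of 15000 to 45000 UMIs, Tbx3 gave 0.87 between libraries, −0.49 by Zscan4, 1.21 in negative endoderm-high cells and 0.90 in cells at 0, and Sall4 1.14 in positive endoderm-high cells. Cells above the median G2/M share gave 0.88 (Tbx3) and 0.66 (Sall4) between libraries, 0.27 for Sall4 by Zscan4, −0.017, −0.20 and 0.40 by GFP, 0.35 for Tbx3 in positive and 0.24 for Sall4 in negative endoderm-high cells. Cells below it gave 0.96, 1.11 and 0.79 between libraries, −0.49, −1.23 and 0.85 by Zscan4, −0.11, −0.95 and 0.84 by GFP, 0.17 (Tbx3) and 1.20 (Sall4) in positive and 0.47 (Sall4) in negative endoderm-high cells, and 0.21 for Sall4 in cells at 0.

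Classes from 5000 thinned UMIs gave −0.79 and 0.28 for Tbx3 and Sall4 by Zscan4, −0.35 and 0.50 by GFP, 0.36 for Tbx3 in positive endoderm-high cells, and 0.97 and 0.38 in cells at 0. The share of the library difference in cells without Zscan4 or endoderm UMIs then became 52.6%, 76.3% and 26.4%, that in cells with 1 to 2 Zscan4 UMIs 22.2%, 21.7% and 19.6%, that in Zscan4-high cells 2.06%, 2.24% and 12.1%, and that in endoderm-high cells 13.0% for Tbx3 and 26.5% for Sall4, so that the Sall4 share in endoderm-high cells was close to that in cells without Zscan4 or endoderm UMIs. With thinning seed 2 Tbx3 gave −0.52 by Zscan4 and 0.90 in cells at 0, and Sall4 0.41 by Zscan4. A Zscan4 threshold of 1 gave −0.15, −0.31 and 0.33, and one of 10 gave −1.02 (Tbx3) and 0.24 (Sall4). A GFP threshold of 1 gave 0.068 (sign changed), −0.25 and 0.45, and one of 10 gave −0.56, −1.19 and 0.68. An endoderm threshold of 1 gave 0.064, −1.004 and 0.69 in the positive and 0.74 (Tbx3) and 0.23 (Sall4) in the negative library, and one of 10 gave 0.41 and 1.12, and 1.23 and 0.60, for Tbx3 and Sall4. Classes from Gata6 alone gave 0.53 and 0.90 for Tbx3 and Sall4 in the positive library, and from Dab2 alone 0.13 and 0.81 for Tbx3 in the positive and negative library. In cells without Gata6 or Dab2, Tbx3 differed by −0.34 by Zscan4, and in cells without Zscan4 by 0.32 in positive endoderm-high cells. In cells with no class UMI before thinning, added after the data were seen, Tbx3 differed by 0.81. By Spearman's rho, 2 of the 5 genes most like Tbx3 and 1 of the 5 most like Sall4 were the same as by Pearson's r.

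Among these values, the 1.5 size was lost or gained in several, among them Prdm14 by Zscan4 at a threshold of 1 (lost), Tbx3 by Zscan4 with 5000 thinned UMIs or a threshold of 10, Sall4 by Zscan4 below the median G2/M share and Sall4 in negative endoderm-high cells at a threshold of 10 (all gained). A stricter cell filter, removal of cells whose UMIs exceed 2 times the median and removal of shared barcodes (added after the data were seen) moved no main value beyond its counting interval. Depth limits Prdm14 most, with 2 to 18 UMIs in the endoderm-high bands, and intervals cover counting error only.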

Other observations

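Mecom, a PRDM-family regulator, ran differently from Prdm14 across the same cells. In the positive library it was at 75.9 CPM in Zscan4-high and 13.8 CPM in Zscan4-0 cells (log2 difference 2.38), and at 51.5 CPM in endoderm-high and 25.5 CPM in endoderm-0 cells (0.99), where Prdm14 was lower on both counts. Sall1, a spalt-family relative of Sall4, was lower in Zscan4-high cells, at 12.9 against 28.3 CPM (−1.08), where Sall4 was higher. Tet1 and Tet2, which oxidise methylated cytosine, were lower in Zscan4-high cells, at 128 against 226 CPM for Tet1 and 33.8 against 89.4 CPM for Tet2.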
